A study of Mus musculus with 2 samples.

Results

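Aminoacyl-tRNA synthetases are the enzymes that load each amino acid onto its transfer RNA. Of the 32285 genes listed in the files, 37 belong to the family. They were found by symbol: 1 amino acid letter followed by ars, with or without a 1 or 2, plus Eprs, Farsa and Farsb. Cells make a cytosolic set and, from separate nuclear genes whose symbols end in 2, a mitochondrial set; Gars and Kars supply both compartments from 1 gene. When an amino acid runs short, uncharged transfer RNA activates the kinase GCN2, and the transcription factor ATF4 is then made in larger amounts and raises many cytosolic synthetases together with amino acid transporters and biosynthetic enzymes. The family was divided into 20 cytosolic genes, 16 mitochondrial genes and Lars2, which was kept apart. Among the cytosolic genes, 12 are known ATF4 targets (Aars, Cars, Eprs, Gars, Iars, Lars, Mars, Nars, Sars, Tars, Wars and Yars) and 8 were put in a second list (Dars, Farsa, Farsb, Hars, Kars, Qars, Rars and Vars). The lists come from the literature on ATF4, but they were chosen with earlier results of these data known.

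The study collected tumours grown under the skin of mice that ate either a control diet or a diet without serine and glycine, and profiled their cells by droplet single-cell RNA sequencing. Each diet is 1 library, and the sources used here do not state how many mice a library holds, their strain or age, or the tumour line. The titles give only the codes CT and SG, which were read from the series' design text. The protocol names human heart tissue and CM cells although the samples are labelled mouse tumour, so how the cells were handled is uncertain. With 1 library per diet no difference between diets has a replicate check, and none carries a p-value. The intervals of single genes and of sums are 95% intervals from the molecule counts and cover counting error only. The interval of a median is a 95% interval taken from the ranked ratios of its member genes. Those genes are not replicates of a diet, and that interval holds neither counting error nor the spread between libraries.

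The control library kept 13588 cells with a median of 11310.5 unique molecules (UMIs) per cell, and the serine/glycine-free library kept 19106 cells with a median of 7305. Classes were set by marker genes: tumour cells by Hmga2 and Rhox5 without leukocyte genes, the others by their lineage genes. The tumour class held 10717 and 13895 cells in the control and the serine/glycine-free library. Monocytes and macrophages numbered 1375 and 1689 cells, T cells 457 and 1342, dendritic cells 153 and 207, NK cells 121 and 172, neutrophils 117 and 116, B and plasma cells 18 and 326, fibroblasts 60 and 88, and endothelial cells 43 and 60. Summed Hmga2 and Rhox5 stood at 2675 and 2596 CPM in the tumour class, where CPM is a gene's UMIs scaled to a total of 1000000 per class and library. In the other classes the pair stood at 0% to 3.44% of that level. The same pair was used to set the classes, so this contrast follows in part from the gates. The UMIs of a class were summed per library, so each gene has 1 value per class and library. A 3' UMI counts molecules and is not scaled by transcript length. The libraries shared 87 cell barcodes, 0.589% and 0.421% of their barcodes.

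Promoter sequence is shown first because the results turn on the division between ATF4 targets and the rest of the family. RefSeq promoter windows of 250 bases before and 50 after the annotated start (GRCm38.p6) were found for 27 of the 37 genes. The letters TGATGNAA, the core of the C/EBP-ATF element that ATF4 binds with a partner, or their reverse complement, stood in 5 of the 8 ATF4-responsive genes with a window, in 0 of 5 other cytosolic genes and in 0 of 13 mitochondrial genes. Among all 27025 genes with a window 4.51% held them. Since the list was drawn from known ATF4 targets, the match is a description and not independent of it. The first base of the match lay at -112 and 9 relative to the annotated start base in Aars, -30 in Gars, 7 in Iars, -15 in Tars and 3 in Yars. The sequences below run from 130 bases before the start through the first 30 bases from it, 5′ to 3′, with the matching letters in capitals. Sars and Kars are shown as members with no match in this window, which says nothing about binding of the factor.
Aars, chr8:111033712-111033871, plus strand: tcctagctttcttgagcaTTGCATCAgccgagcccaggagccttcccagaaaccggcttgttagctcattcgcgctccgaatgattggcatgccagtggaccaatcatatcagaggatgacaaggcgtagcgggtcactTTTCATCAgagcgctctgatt
Gars, chr6:55037871-55038030, plus strand: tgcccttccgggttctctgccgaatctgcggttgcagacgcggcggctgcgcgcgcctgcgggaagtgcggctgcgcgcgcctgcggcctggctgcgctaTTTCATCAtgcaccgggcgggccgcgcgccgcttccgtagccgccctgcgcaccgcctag
Iars, chr13:49682000-49682159, plus strand: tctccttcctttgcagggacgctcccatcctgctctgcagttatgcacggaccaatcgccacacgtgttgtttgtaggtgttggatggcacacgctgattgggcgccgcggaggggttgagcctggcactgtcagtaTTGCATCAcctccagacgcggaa
Tars, chr15:11399629-11399788, minus strand: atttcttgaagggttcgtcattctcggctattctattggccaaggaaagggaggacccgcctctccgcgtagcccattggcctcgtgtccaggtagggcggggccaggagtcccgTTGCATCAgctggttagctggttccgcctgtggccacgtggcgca
Yars, chr4:129189773-129189932, plus strand: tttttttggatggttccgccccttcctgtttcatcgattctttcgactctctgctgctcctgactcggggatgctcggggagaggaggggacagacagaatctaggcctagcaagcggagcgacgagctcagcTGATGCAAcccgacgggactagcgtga
Sars, chr3:108445230-108445389, minus strand: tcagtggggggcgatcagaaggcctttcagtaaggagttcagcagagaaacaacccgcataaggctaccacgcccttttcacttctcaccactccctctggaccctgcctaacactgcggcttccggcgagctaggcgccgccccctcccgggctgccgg
Kars, chr8:112011325-112011484, minus strand: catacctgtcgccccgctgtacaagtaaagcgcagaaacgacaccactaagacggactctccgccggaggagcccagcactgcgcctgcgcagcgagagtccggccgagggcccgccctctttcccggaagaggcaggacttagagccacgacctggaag
Summed cytosolic synthetase RNA was higher in tumour cells than in each other class. The mitochondrial set was higher in some of those classes and lower in others. The 20 cytosolic genes summed to 2363 CPM in the control library and 2191 CPM in the serine/glycine-free library in the tumour class, against 1102 and 998 CPM in monocytes and macrophages, 1139 and 1168 in T cells, and 699 and 688 in neutrophils. Endothelial cells came nearest, at 1566 and 1292 CPM. Not every member followed the sum. In both libraries Qars was lowest in tumour cells among the 4 classes compared for it. Dars and Vars were highest in NK cells among 6 classes each. In monocytes and macrophages 19 of 20 cytosolic genes were lower than in tumour cells in each library, where 57.9% and 59.4% of all genes tested were lower. The median log2 ratio to tumour cells was -1.02 (interval over members -1.27 to -0.73) in the control library and -1.15 (-1.51 to -0.70) in the other. All cells were taken from the same 2 libraries, so the classes do not have independent replicates.

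The same order held in the other classes with a smaller or larger gap. In T cells 19 of 20 and 17 of 20 cytosolic genes were lower than in tumour cells, beside 46.4% and 47.4% of all genes. Fibroblasts had 20 of 20 lower in both libraries, beside 50.2% and 51.6% of all genes, with medians of -0.89 and -0.78. NK cells had 16 and 18 of 20 lower (all genes 47.4% and 46.5%), dendritic cells 19 and 19 (52% and 50.6%), endothelial cells 16 and 17 (45.9% and 45%), and neutrophils 20 of 20 and 17 of the 18 genes detected (54% and 53.1%). B and plasma cells had 11 of 13 detected genes lower in the control library and 17 of 20 in the other (41% and 50.1%). Their control value rests on 18 cells.

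Mitochondrial synthetases showed another order. Their sum was 258 CPM in the tumour class and 439 CPM in T cells in the control library, and 260 CPM and 492 CPM in the serine/glycine-free library. NK cells stood at 392 and 487 CPM, and monocytes and macrophages at 226 and 215 CPM. In T cells the summed log2 ratio to tumour cells was 0.76 and 0.92, with 11 of 16 genes higher in each library, beside 53.6% and 52.6% of all genes. In monocytes and macrophages 11 and 14 of 16 genes were lower than in tumour cells, beside 57.9% and 59.4% of all genes, with medians of -0.29 (-0.40 to 0.04) and -0.43 (-0.87 to -0.16). The summed ratio was -0.34 and -0.29 in fibroblasts. There 8 and 11 of the 14 genes detected were lower, beside 50.2% and 51.6% of all genes. In neutrophils the summed ratio was -0.17 and -0.42. There 7 of 13 and 6 of 7 detected genes were lower, beside 54% and 53.1% of all genes. These neutrophil values rest on 117 and 116 cells, and no member reached 50 UMIs over both libraries in them.

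A pair of genes made up most of that excess. Fars2, the mitochondrial phenylalanine enzyme, measured 168 and 191 CPM in T cells against 66.8 and 69.9 CPM in tumour cells, and Nars2, the asparagine enzyme, 92.3 and 111 CPM against 20.3 and 17.5 CPM. Together they took 59.2% and 61.3% of the mitochondrial sum in T cells and 33.7% and 33.7% in tumour cells. Without them the other 14 genes summed to 179 and 190 CPM in T cells and to 171 and 172 CPM in tumour cells. Fars2 spans 608.9 kb (chr13:36117412-36726280, GRCm38, GENCODE M21) and Nars2 113.3 kb (chr7:96951505-97064758), the longest of the family, and the sources used here do not state how intronic reads were counted. Malat1, a nuclear RNA, was also higher in T cells (8210 and 6939 CPM) than in tumour cells (5157 and 4725 CPM). The part of nuclear or intronic RNA in these levels was not tested.

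**Figure D1:**
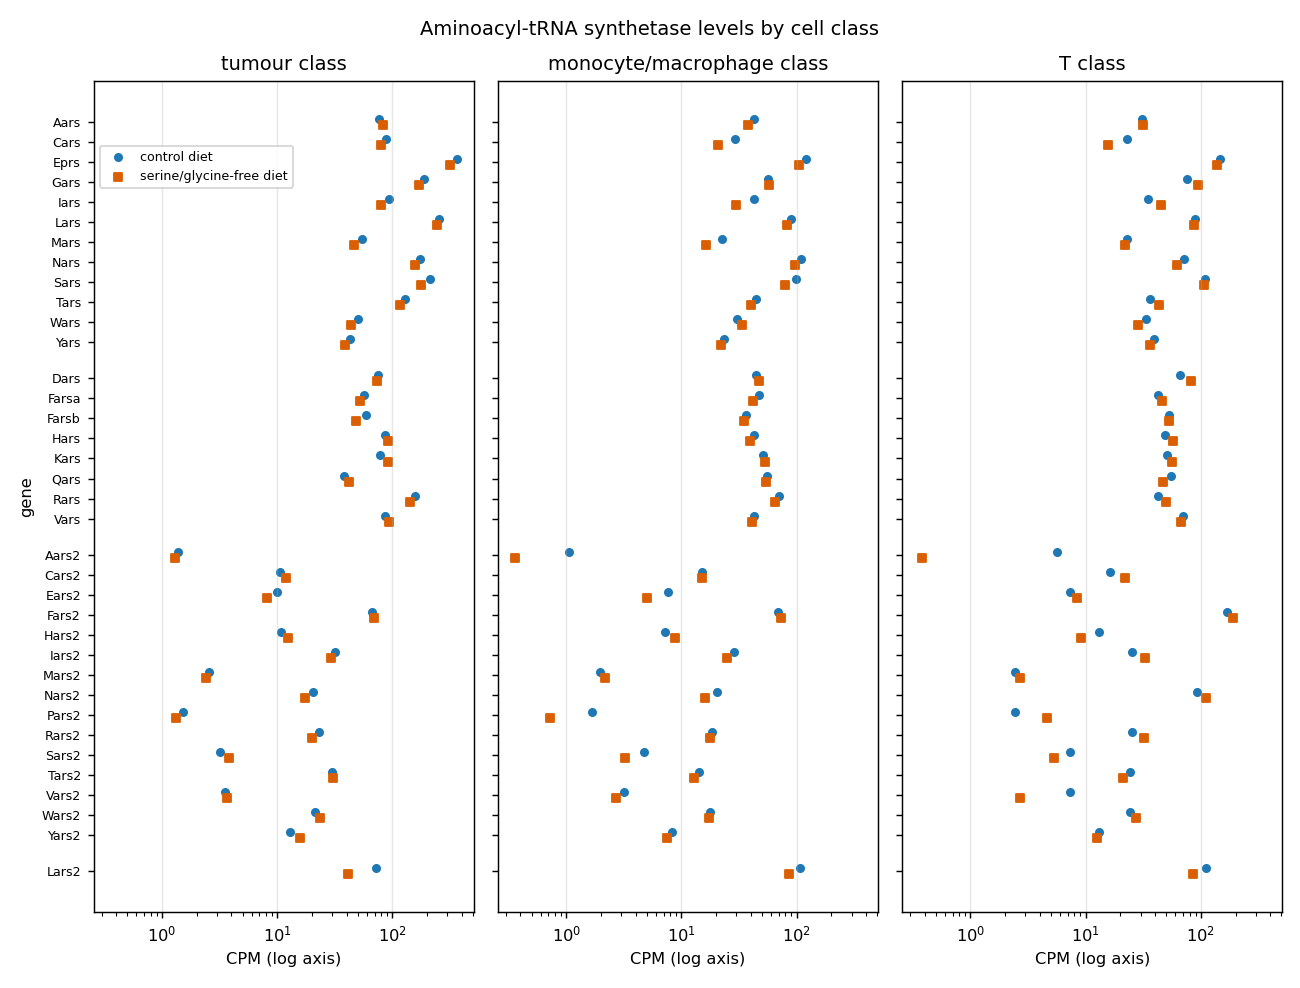
Level of the named synthetase genes in the tumour, monocyte and macrophage, and T classes, in CPM on a log axis, 1 point per library (circles control diet, squares serine/glycine-free diet); the gene groups from top to bottom are ATF4-responsive cytosolic, other cytosolic, mitochondrial and Lars2. Most cytosolic genes sit further right in the tumour panel, Fars2 and Nars2 in the T panel, and a gene without a UMI has no point.

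Within the tumour class the levels spanned a wide range. Eprs, the double enzyme for glutamate and proline, was the most abundant member at 362 and 319 CPM, followed by Lars at 256 and 243 CPM and Sars at 211 and 176 CPM. The lowest were Aars2 at 1.39 and 1.29 CPM and Pars2, the mitochondrial proline enzyme, at 1.53 and 1.31 CPM. Of the 16 mitochondrial genes, Fars2 was the highest at 66.8 and 69.9 CPM, and Tars2, Iars2, Rars2, Wars2 and Nars2 lay between 17.5 and 31.6 CPM in both libraries.

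Between diets, the cytosolic genes of tumour cells were mostly a little lower in the serine/glycine-free library, and the 12 known ATF4 targets more uniformly so. Of the 20 cytosolic genes 5 were higher and 15 lower, beside 57% of the 15021 genes tested that were higher and 43% that were lower. Their median log2 ratio was -0.13 (-0.18 to -0.05), against a median of 0.04 over all genes tested. With the 10 clusters of tumour cells at equal weight in both libraries, an alternative chosen after seeing the data, the cytosolic median was -0.03 with an interval (-0.07 to 0.07) that spans 0. No member of either set passed the fold limit used here, 25% higher or 20.0% lower, which 15.1% of all genes passed upward and 10.3% downward. For the cytosolic sum the log2 ratio was -0.11 (-0.12 to -0.10).

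Among the ATF4-responsive genes 1 of 12 was higher and 11 lower, with a median of -0.15 (-0.22 to -0.13). Their sum went from 1725 CPM in the control library to 1556 CPM, a log2 ratio of -0.15 that became -0.03 at equal cluster weights, with 2 of 12 higher. The other 8 cytosolic genes divided 4 against 4, with a median of 0.01 (-0.31 to 0.24) and sums of 637 and 635 CPM. The 16 mitochondrial genes divided 9 higher against 7 lower, with a median of 0.01 (-0.21 to 0.17) and sums of 258 and 260 CPM, and this median took either sign under other processing (-0.03 to 0.09). The ATF4 list was thus the group whose members leaned one way. Markers of other cells were also detected in the tumour class: the 10 pan-leukocyte genes summed to 244 and 272 CPM and the 13 monocyte and macrophage genes to 59.3 and 110.5 CPM, against 4329 and 4260 CPM and 32197 and 35293 CPM in monocytes and macrophages. All of these markers had UMIs in both libraries, and their part in the ratios was not tested.

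**Figure D2:**
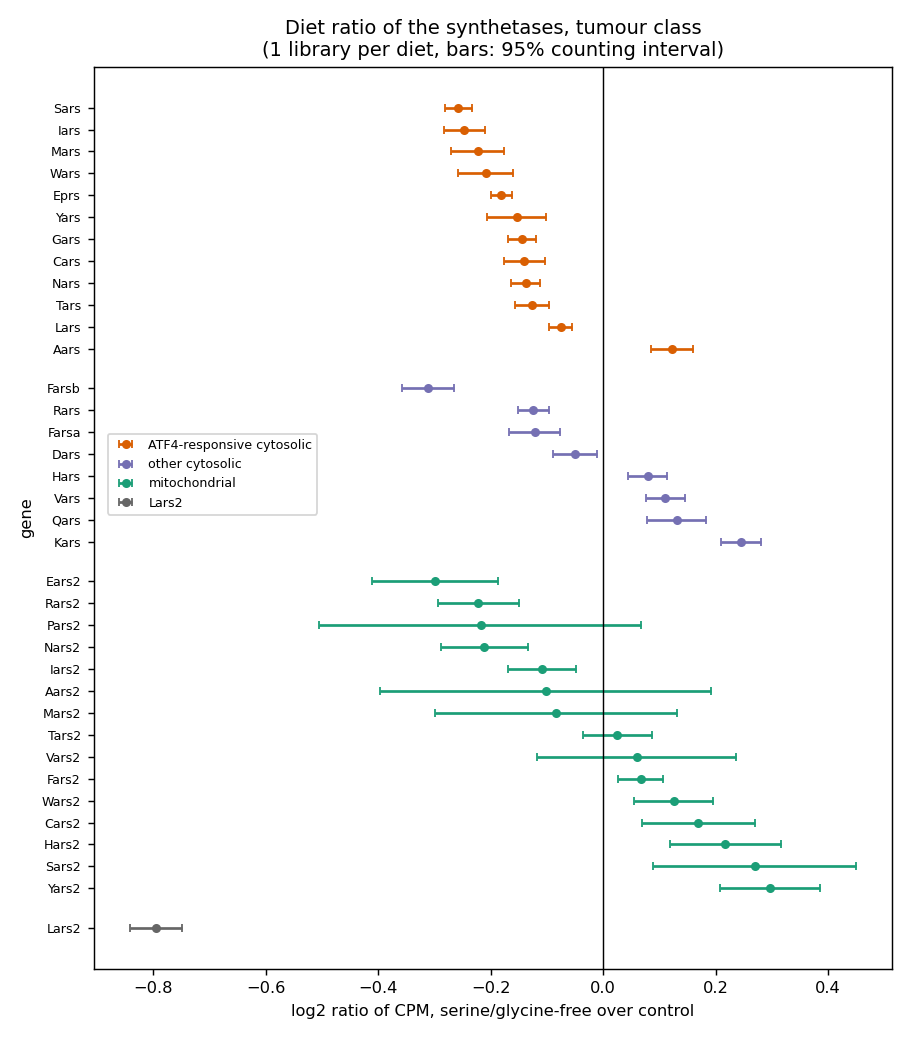
Log2 ratio of CPM (serine/glycine-free over control library) for the named synthetase genes in the tumour class, with bars for the 95% counting interval and colours for the 4 gene groups. All ATF4-responsive genes but Aars lie left of 0, the other cytosolic and the mitochondrial genes lie on both sides, and Lars2 is far to the left at -0.80.

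The enzymes for the amino acids missing from the diet did not share a direction. Sars, the cytosolic serine enzyme (chr3:108424865-108445209), measured 211 CPM in the control library and 176 CPM in the serine/glycine-free library, a log2 ratio of -0.26 (-0.28 to -0.23), the lowest of the ATF4 list. Its mitochondrial counterpart Sars2 measured 3.18 and 3.84 CPM, a ratio of 0.27 (0.09 to 0.45). Gars, which charges glycine in both compartments, measured 187 and 169 CPM, a ratio of -0.14 (-0.17 to -0.12). So the serine enzymes of the cytosol and the mitochondria lay on opposite sides of 0.

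Aars and Aars2, the alanine enzymes of cytosol and mitochondria, have also been reported to attach lactyl groups to proteins. Aars (chr8:111033144-111057664) was the 1 ATF4-responsive gene that was higher, at 76.8 CPM in the control and 83.6 CPM in the serine/glycine-free library, a log2 ratio of 0.12 (0.08 to 0.16). Exosc6 overlaps it on the same strand and was listed at 0 UMIs in the tumour class. How reads in the overlap were assigned is not known, and their part in the Aars values was not tested. Aars2 (chr17:45506841-45520843) rested on 207 and 183 UMIs in all tumour cells, 1.39 and 1.29 CPM, and its ratio of -0.10 has an interval (-0.40 to 0.19) that spans 0. A diet difference in Aars2 within that interval was not detectable at this depth.

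Outside the tumour class Aars was less abundant, at 43.0 and 37.8 CPM in monocytes and macrophages, 41.0 and 49.3 CPM in dendritic cells and 30.8 and 31.7 CPM in T cells. The diet ratios there, -0.19 (-0.45 to 0.08), 0.27 (-0.49 to 1.03) and 0.04 (-0.53 to 0.64), all have intervals that span 0. Aars2 had 7 and 2 UMIs in monocytes and macrophages and 7 and 1 in T cells, too few for a ratio. In the remaining classes it had at most 1 UMI per library.

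Members of the ATF4 list other than Aars and the serine and glycine enzymes lay close together in the tumour class. Iars for isoleucine had a ratio of -0.25 (94.0 to 79.2 CPM), Mars for methionine -0.22 (54.6 to 46.8 CPM) and Eprs -0.18. Yars for tyrosine (-0.15), Cars for cysteine (-0.14), Nars for asparagine (-0.14), Tars for threonine (-0.13) and Lars for leucine (-0.08) were nearer 0. Every one of these 8 intervals lay below 0.

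The other cytosolic genes spread more. Farsb and Farsa, the subunits of the phenylalanine enzyme, had ratios of -0.31 (59.4 to 47.9 CPM) and -0.12. Farsb was thus the lowest cytosolic member. Rars for arginine stood at -0.12 and Dars for aspartate at -0.05. On the other side stood Kars for lysine at 0.24 (77.5 to 91.9 CPM), the highest cytosolic member, Qars for glutamine at 0.13, Vars for valine at 0.11 and Hars for histidine at 0.08. Hars and Hars2 overlap on opposite strands, and the sources used here do not state whether counting used strand.

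Among the mitochondrial genes the highest ratios were those of Yars2 at 0.30 (12.8 to 15.7 CPM), Sars2, and Hars2 at 0.22 (10.8 to 12.5 CPM), followed by Cars2 at 0.17. The lowest were Ears2, the glutamate enzyme, at -0.30 (10.0 to 8.12 CPM), Rars2 at -0.22 and Pars2 at -0.22, whose interval (-0.51 to 0.07) spans 0. Nars2 stood at -0.21 and Iars2 at -0.11. Fars2 (0.07), Vars2 (0.06), Tars2 (0.02) and Mars2 (-0.08) lay near 0.

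The tryptophan enzymes were examined because Wars is known to be induced by interferon-gamma. Wars (chr12:108860030-108894174) measured 50.2 and 43.4 CPM in tumour cells, a ratio of -0.21 (-0.26 to -0.16). Wars2 (chr3:99141068-99239186) measured 21.4 and 23.3 CPM, a ratio of 0.13 (0.05 to 0.20). The 8 interferon-gamma genes used for context, among them Irf1, Gbp2, Gbp4, Gbp5, Cxcl9, Ido1 and Cd274, were higher in 8 of 8, beside 57% of all genes, with a median of 0.63, and summed to 235 and 385 CPM. At equal cluster weights 6 of 8 were higher with a median of 0.21, while Wars stayed at -0.20. In the pooled cells Wars thus lay on the other side of 0 from that list.

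Genes that work with the synthetases stood near the background. Of 17 partners of transfer RNA charging and handling 11 were higher and 6 lower, beside 57% of all genes that were higher, with a median of 0.08. Their sum was slightly lower, at 896 and 885 CPM (-0.02). The scaffold Aimp1, which holds the cytosolic multi-synthetase complex together, measured 332 and 307 CPM (-0.11), and its companion Eef1e1 107 and 113 CPM (0.08). Xpot, which exports transfer RNA from the nucleus, measured 68.0 and 60.9 CPM (-0.16). Of the 8 synthetases of the complex 2 were higher, with a median of -0.10, and at equal cluster weights 4 of 8 were, with a median of 0.00. The 16 other ATF4 target and pathway genes used for context divided 7 higher and 9 lower, with a median of -0.06. At equal cluster weights 9 were higher with a median of 0.05, beside 58.9% of all genes tested that way. Their ratios ran from -0.77 to 0.48. In the pooled cells 3 passed the fold limit upward and 3 downward, beside 15.1% and 10.3% of all genes. Atf4 (median -0.20) and Ddit3 (median -0.54) were lower in 10 of 10 tumour clusters, and Trib3 in 9. The clusters share the same 2 libraries, and the share of all genes with 1 direction in 10 of 10 was not counted. Asns and Chac1 were each higher in 6 of 10.

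Individual tumour cells gave a second view, within 1 library at a time. Tumour cells with at least 3000 UMIs were ranked by the summed share of those 16 ATF4 context genes (Atf4, Asns, Psat1, Phgdh, Chac1, Trib3, Ddit3, Nupr1, Sesn2, Slc7a11, Slc7a5, Slc3a2, Atf5, Cebpb, Vldlr and Stc2), none of them a synthetase, and divided into 5 groups of equal size. Quintile 1 held 2128 and 2709 cells and quintile 5 held 2127 and 2708 cells in the control and the serine/glycine-free library. Score and readout come from the same cells of 1 library, so these ratios describe how RNA levels went together and have no replicate.

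All 12 ATF4-responsive synthetases were at least 25% higher in quintile 5 than in quintile 1 in both libraries, where 14.1% and 14.5% of all genes were. Their median log2 ratio was 1.37 (1.10 to 1.51) in the control and 1.16 (1.09 to 1.38) in the serine/glycine-free library. The medians over all genes were -0.17 and -0.13. Summed, the 12 genes stood at 958 CPM, 1393, 1757, 2047 and 2368 CPM from quintile 1 to quintile 5 in the control library, and at 929.8, 1226, 1522, 1797 and 2154 CPM in the other. Each step was upward, and the serine/glycine-free library was the lower of the pair in each quintile.

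Wars and Tars had the steepest slopes in the control library, and Tars and Aars in the other. Wars went from 22.3 to 77.5 CPM between quintile 1 and quintile 5 in the control library and from 27.7 to 62.6 CPM in the serine/glycine-free library, log2 ratios of 1.80 (1.67 to 1.93) and 1.18 (1.05 to 1.31) by the ATF4 score. Tars went from 59.5 to 186 CPM and from 54.4 to 179.5 CPM, ratios of 1.64 and 1.72. Aars (1.51 and 1.46), Gars (1.51 and 1.38), Lars (1.40 in the control library), Nars (1.35 and 1.19), Yars (1.40 and 0.93) and Sars (1.24 and 1.11) followed. Mars (1.16 and 1.14), Iars (1.10 and 1.11), Cars (1.06 and 1.09) and Eprs (1.06 and 1.03) had the smallest control ratios of the list. Mars overlaps the score gene Ddit3 on the opposite strand.

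Aars kept its diet difference along the ATF4 ranking, and so did Sars with the opposite sign. Aars stood at 37.6, 61.9, 79.8, 91.8 and 107.5 CPM from quintile 1 to quintile 5 in the control library and at 43.1, 64.6, 82.8, 99.3 and 118.8 CPM in the serine/glycine-free library, higher in each quintile. Sars stood at 124, 172, 207, 246 and 294 CPM and at 113, 137, 171, 202 and 243 CPM, lower in each quintile. Cells of matched rank by ATF4 score therefore differed between the libraries in these 2 genes in opposite directions. The ranks were set within each library and are not equal scores.

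The other groups of the family did not follow as a whole. Of the other 8 cytosolic genes 5 and 6 were higher in quintile 5 by ATF4 score, with medians of 0.35 and 0.44. Rars came close to the ATF4 list at 103 to 215 CPM and 98.9 to 197.6 CPM (1.07 and 1.0), Farsb followed (0.75 and 0.66), while Dars (-0.11 and -0.02), Kars (-0.02 and 0.01) and Qars (-0.21 and -0.14) stayed near 0. Of the 16 mitochondrial genes 5 were higher in each library, beside 35.7% and 38.1% of all genes, with medians of -0.21 and -0.23. Ears2 was the highest of them, from 8.0 to 13.4 CPM and from 6.39 to 10.1 CPM (0.74 and 0.66), and Fars2 (-0.61 and -0.60) was among the lowest. The mitochondrial sum went from 273 to 235 CPM and from 278 to 240.0 CPM.

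Other properties of the cells moved along the same ranking. Malat1 went from 6217 to 4132 CPM and from 5811 to 3744 CPM between quintile 1 and quintile 5 by ATF4 score, and the mitochondrially encoded genes from 4.8% to 4.11% and from 4.49% to 3.47% of UMIs. The 8 interferon-gamma genes were lower in quintile 5 in 8 of 8 in both libraries, with medians of -1.14 and -1.22. Of all genes 35.7% and 38.1% were higher there. Median UMIs per cell went from 11266.5 to 12728 and from 7684 to 9661. With only cells of 3000 to 15000 UMIs the ATF4-responsive medians were 1.49 and 1.23, and with cells ranked within their own cluster 1.15 and 1.0. In that ranking within clusters 2 of the 8 interferon-gamma genes were higher in each library. Their medians were -0.25 (-1.22 to 0.25) and -0.35 (-0.80 to 0.22), with intervals that span 0. The part of the Malat1 difference in these ratios was not tested.

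**Figure D3:**
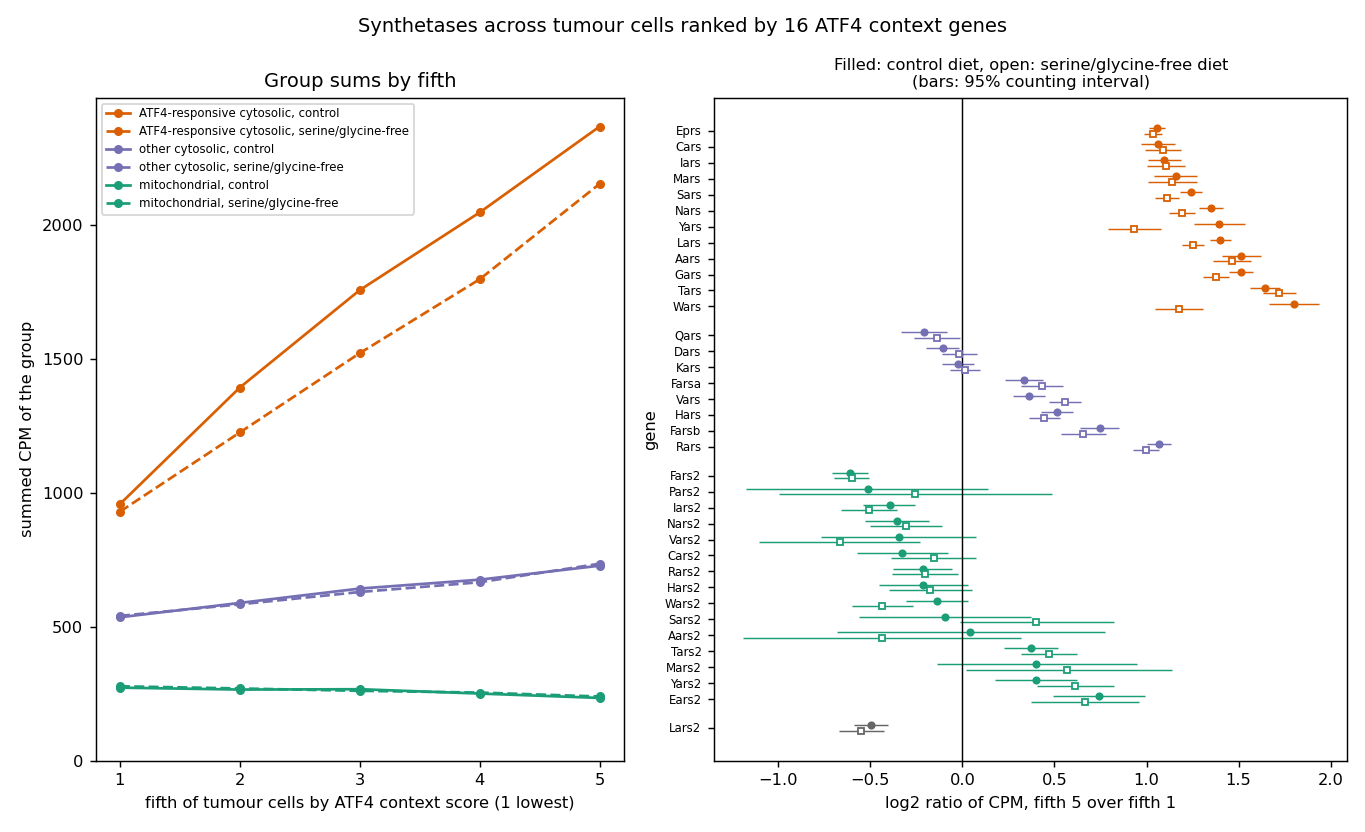
Left, summed CPM of 3 gene groups in the 5 quintiles of tumour cells ranked by the ATF4 context genes (solid control, dashed serine/glycine-free library); right, log2 ratio of quintile 5 over quintile 1 for the named genes with its 95% counting interval (filled control, open serine/glycine-free library). All 12 ATF4-responsive genes lie well right of 0 in both libraries, and the mitochondrial genes scatter about 0.

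Ranked by the 8 interferon-gamma genes instead, Wars parted from the rest of the ATF4 list. It stood at 48.3, 49.9, 40.2, 40.5 and 73.6 CPM from quintile 1 to quintile 5 by interferon-gamma score in the control library and at 38.6, 38.3, 37.0, 39.7 and 65.4 CPM in the other. Quintile 5 was thus the highest in both libraries, and in the control library quintiles 3 and 4 were the lowest. Quintile 5 over quintile 1 gave 0.61 (0.51 to 0.71) and 0.76 (0.64 to 0.88), past 25% higher in both, where 23% and 23.7% of all genes were. The other 11 ATF4-responsive genes were lower in both libraries, beside 35.6% and 33.8% of all genes, and 7 and 8 of them were lower by 20.0% or more, beside 6.1% and 5.96% of all genes. Tars was lowest in the control library, from 142 to 103 CPM (-0.47), and Aars went from 83.4 to 63.3 CPM (-0.40) and from 93.8 to 67.2 CPM (-0.48).

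In monocytes and macrophages ranked the same way Wars went from 26.5 to 42.1 CPM (0.67) in the control library and from 22.7 to 56.9 CPM (1.33) in the serine/glycine-free library. The quintiles there held 271 and 270, and 326 and 326 cells. Median UMIs per cell were 3428 and 4780, and 2791.5 and 3259.

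The mitochondrial genes moved little along this ranking in tumour cells. Of the 16 genes 10 and 13 were higher in quintile 5 by interferon-gamma score, beside 64.4% and 66.2% of all genes, with medians of 0.09 and 0.13. Along a ranking by the hypoxia genes Bnip3, Ankrd37, Ndrg1, Pdk1, Car9 and Egln3 they were lower in 13 and 14 of 16, beside 54.4% and 64.1% of all genes, with medians of -0.16 and -0.36. Sars2 was among the lowest (-0.56 and -0.92).

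Cycling tumour cells, with at least 8 UMIs per 10000 of Top2a, Mki67, Ube2c, Cenpf, Prc1, Kif11, Ccnb1 and Plk1, differed by single members more than by group. The ATF4-responsive genes were higher in cycling cells in 6 of 12 with the control diet and 12 of 12 without serine and glycine, beside 42.4% and 41.2% of all genes, with medians of -0.01 and 0.14. Vars (0.63 and 0.56) and Mars (0.39 and 0.48) of the cytosol and Mars2 (0.91 and 0.43) and Cars2 (0.70 and 0.47) of the mitochondria were higher in cycling cells of both libraries. Mars2 measured 2.55 and 2.41 CPM in tumour cells, so its ratios are coarse.

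Tumour cells fell into 10 clusters, and the diet ratios depended in part on how these were weighted. A cluster is named here by its number and its leading genes, and no cell state is given to it. The ATF4-responsive sum was highest in cluster 0 (Tenm4, Cdsn), at 2293 and 2278 CPM, and lowest in cluster 2 (Cp, Aspn), at 1079.6 and 916 CPM. In 8 of 10 clusters it was lower with the serine/glycine-free diet. It was higher in cluster 4 (Lama2, Klrb1b), 1700.5 to 1764 CPM, and in cluster 6 (Cdc20, Birc5), 1601 to 1618 CPM.

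When each cluster was given the same weight in both libraries, the log2 ratio of the ATF4-responsive sum went from -0.15 to -0.03. The median over the 20 cytosolic genes went from -0.13 to -0.03, with 7 of 20 higher, beside 58.9% of 14640 genes tested that way. The lean of the ATF4 list was thus smaller at equal weights. The clusters were made from the same cells with all variable genes, so their shares are not reported as a diet difference.

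Single members did not all follow that weighting. Sars kept a ratio of -0.21 and was lower in 10 of 10 clusters (-0.42 to -0.08). Farsb (-0.22) and Mars were also lower in 10 of 10 clusters. Kars (0.21), Wars2 (0.22) and Yars2 were higher in 10 of 10. The cluster ratio nearest 0 was -0.02 for Mars and 0.005 for Kars. In cluster 0 the intervals of Wars2 (-0.07 to 0.41) and Yars2 (-0.10 to 0.62) span 0, while that of Kars (0.04 to 0.32) does not. All clusters come from the same 2 libraries, so they do not repeat the diet comparison. The share of all genes with 1 direction in 10 of 10 clusters was not counted. Aars went from 0.12 to 0.27 and was higher in 9 of 10 clusters (-0.14 to 0.46, median 0.24), with cluster 2 as the exception. Wars stayed at -0.20 and was lower in 9 of 10, while Gars went from -0.15 to -0.05, Eprs from -0.19 to -0.03 and Lars from -0.08 to 0.08. Leaving Lars aside, the direction of each gene named in this paragraph was the same with and without the weighting.

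**Figure D4:**
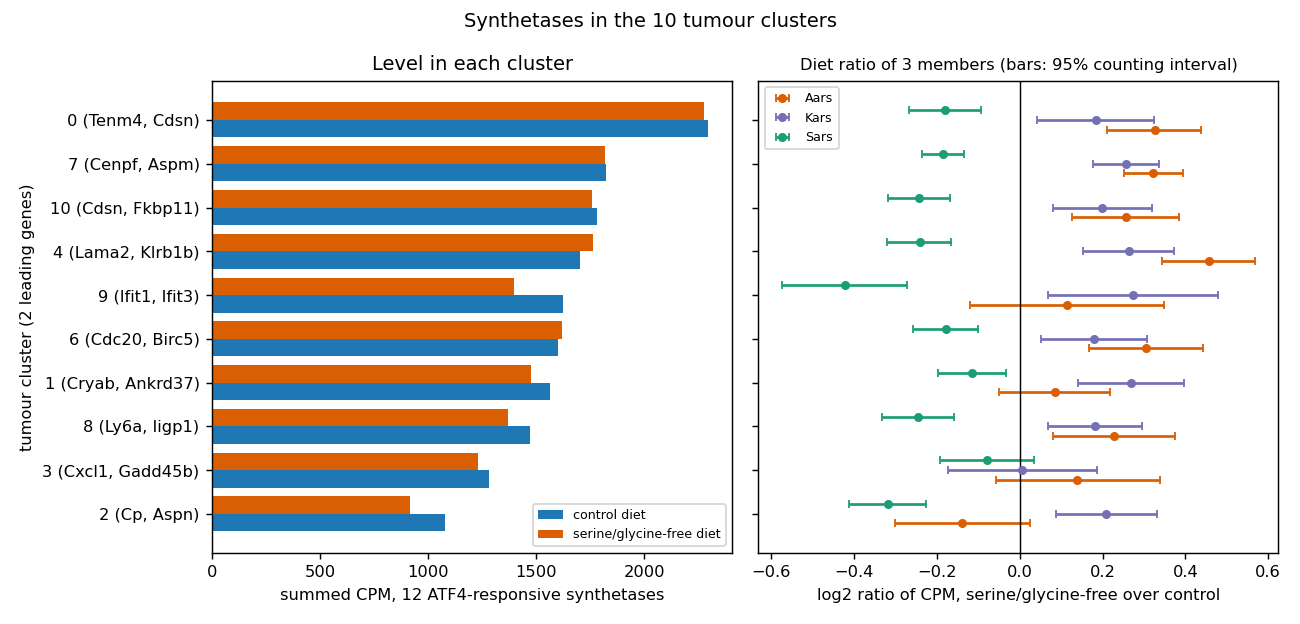
Left, summed CPM of the 12 ATF4-responsive synthetases in each of the 10 tumour clusters and each library (bars start at 0); right, the log2 ratio between libraries of Aars, Kars and Sars in the same clusters, with 95% counting intervals. The sums differ more between clusters than between libraries, Sars lies left of 0 in 10 of 10 clusters, and Aars lies right of 0 in 9.

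In monocytes and macrophages the cytosolic genes were also mostly lower in the serine/glycine-free library. Of 20 genes 16 were lower, beside 52.7% of all 9967 genes tested, with a median of -0.12 (-0.19 to -0.06), and 4 were lower by 20.0% or more, beside 12.9% of all genes. Those 4 were Iars (43.0 to 29.7 CPM, -0.53), Cars (29.0 to 20.7 CPM, -0.49), Mars (-0.47) and Sars (99.6 to 79.4 CPM, -0.33), all of the ATF4 list. Wars was on the other side at 30.3 and 33.5 CPM, 0.15 (-0.15 to 0.44). With classes taken from clusters the cytosolic median was -0.05, with an interval (-0.15 to 0.06) that spans 0. In cluster 11 of these cells 10 of 20 genes were higher, with sums of 1200.0 and 1205 CPM.

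For the mitochondrial set in these cells 11 of 16 genes had 50 UMIs or more, and 2 of the 11 were higher, beside 47.3% of all genes. Hars2 was the highest member at 7.15 and 8.82 CPM (0.30), and Fars2 stood at 68.6 and 73.8 CPM (0.11). Ears2 was the lowest at 7.6 and 5.04 CPM (-0.59), with an interval (-1.31 to 0.10) that spans 0. The interferon-gamma genes were higher in 7 of 7 with a median of 0.96.

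In T cells the cytosolic set divided evenly. Of 20 genes 10 were higher and 10 lower, beside 55.8% and 44.2% of 7833 genes, and the sum was 1139 and 1168 CPM. Iars was the highest of the cytosolic genes (34.8 to 45.5 CPM, 0.39) and Cars the lowest (22.7 to 15.7 CPM, -0.53). Wars stood at 33.2 and 28.3 CPM (-0.23), and Lars2 at 111 and 85.6 CPM (-0.37). Of the 7 mitochondrial genes with enough UMIs 6 were higher, led by Cars2 (16.2 to 22.2 CPM, 0.45) and Iars2 (25.1 to 32.5 CPM, 0.37). The intervals of all of these members but Lars2 span 0.

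The small classes gave values with wide intervals. In dendritic cells 9 of the 14 cytosolic genes with enough UMIs were higher, beside 58.4% of all genes. Vars stood out at 43.9 and 83.6 CPM (0.93, interval 0.27 to 1.61), then Eprs at 90.8 and 126 CPM (0.47) and Fars2 at 98.1 and 122 CPM (0.31). Farsa (46.9 to 27.4 CPM, -0.77), Lars2 (90.8 to 56.2 CPM, -0.69) and Iars (42.5 to 34.2 CPM, -0.31) were the lowest.

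NK cells had 7 of 8 such cytosolic genes lower, beside 43.9% of all genes. Nars (89.9 to 58.4 CPM, -0.62), Rars (65.1 to 45.7 CPM, -0.51) and Sars (105 to 81.2 CPM, -0.37) were lowest. Fars2 (97.6 to 152 CPM, 0.64), Nars2 (89.9 to 112 CPM, 0.31) and Dars (86.1 to 93.9 CPM, 0.12) were highest. Of these 6, Fars2 alone has an interval that leaves out 0 (0.08 to 1.21). The median over the 8 cytosolic genes was -0.27, and with the class taken from clusters it was -0.07 over 18 genes.

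Among the classes with ATF4-responsive genes to test, fibroblasts had the lowest median for that list. All 6 ATF4-responsive genes with enough UMIs were lower, with a median of -0.55 (-0.69 to -0.29), and 7 of 9 cytosolic genes were lower, beside 49% of all genes. Sars went from 128 to 79.7 CPM (-0.69), Gars from 158 to 99.1 CPM (-0.68) and Eprs from 295 to 190.4 CPM (-0.63), each with an interval below 0. Kars (44.9 to 58.3 CPM, 0.38), Dars (55.6 to 71.9 CPM, 0.37) and Lars2 (103 to 109 CPM, 0.08) were highest. These are 60 and 88 cells, and monocyte and macrophage markers summed to 937 and 175 CPM in them, whose part in the ratios was not tested. With the class taken from clusters the ATF4-responsive median was nearer 0, at -0.27 over 12 genes.

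Endothelial cells, 43 and 60 in number, had 5 of 7 such cytosolic genes lower, beside 51% of all genes. The median over these genes was -0.21. With the class taken from clusters it was 0.13 over 13 genes, with cytosolic sums of 1567 and 1587 CPM, so the lean did not hold. In the gated class Sars went from 153 to 70.1 CPM (-1.13, interval -1.94 to -0.36). Lars2 stood at 185 and 104 CPM (-0.84) and Lars at 134 and 86.8 CPM (-0.63). Wars was the highest member at 79.9 and 144 CPM (0.85, 0.10 to 1.62), on 25 and 43 UMIs, above Nars (0.01) and Rars (-0.09). Tumour markers Hmga2 and Rhox5 in this class stood at 0.836% and 2.70% of their tumour level. Wars thus lay above 0 in the endothelial cells and below it in tumour cells, and the difference between the classes was not tested.

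B and plasma cells had 3 members with enough UMIs, Fars2 (0.13), Eprs (0.21) and Vars (1.24), and each rests on 2 to 6 UMIs in the control library. No member reached 50 UMIs in neutrophils.

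Lars2, the mitochondrial leucine enzyme (chr9:123366927-123462666), lay apart from the rest of the family. It measured 71.9 CPM in the control and 41.4 CPM in the serine/glycine-free library in tumour cells, a log2 ratio of -0.80 (-0.84 to -0.75), while the other 36 members lay between -0.31 and 0.30. It was lower in 10 of 10 tumour clusters (-1.07 to -0.59), and lower in 8 of 9 classes, with fibroblasts as the exception. That class count includes neutrophils and B and plasma cells, in which Lars2 did not reach the UMI minimum for testing. It reached that minimum in the other 7 classes. Monocytes and macrophages stood at 108 and 86.1 CPM (-0.32).

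A pair of genes that hold ribosomal RNA sequence moved with it. Gm42418 went from 2113 to 1034 CPM (-1.03) in tumour cells and AY036118 from 159.6 to 62.8 CPM (-1.35), and both were lower in 9 of 9 classes and in 10 of 10 clusters. Gm26917, the third such gene, was at 55.6 and 61.8 CPM (0.15) and lower in 5 of 9 classes. Malat1 was lower in 8 of 9 classes, by 0.13 on the log2 scale in tumour cells, and the 13 mitochondrially encoded genes summed to 44665 and 39889 CPM.

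Lars2 also ran against the ATF4 list within each library. From quintile 1 to quintile 5 by ATF4 score it went from 84.1 to 59.7 CPM (-0.49) and from 51.8 to 35.5 CPM (-0.55), as Gm42418 did from 2688 to 1899.8 CPM and from 1259 to 924 CPM. None of the 299 member transcripts matched the ribosomal RNA, Gm42418, AY036118 or Gm26917 transcripts in a sequence search; introns were not searched. Whether ribosomal RNA reads have a part in the Lars2 values was not tested.

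**Figure D5:**
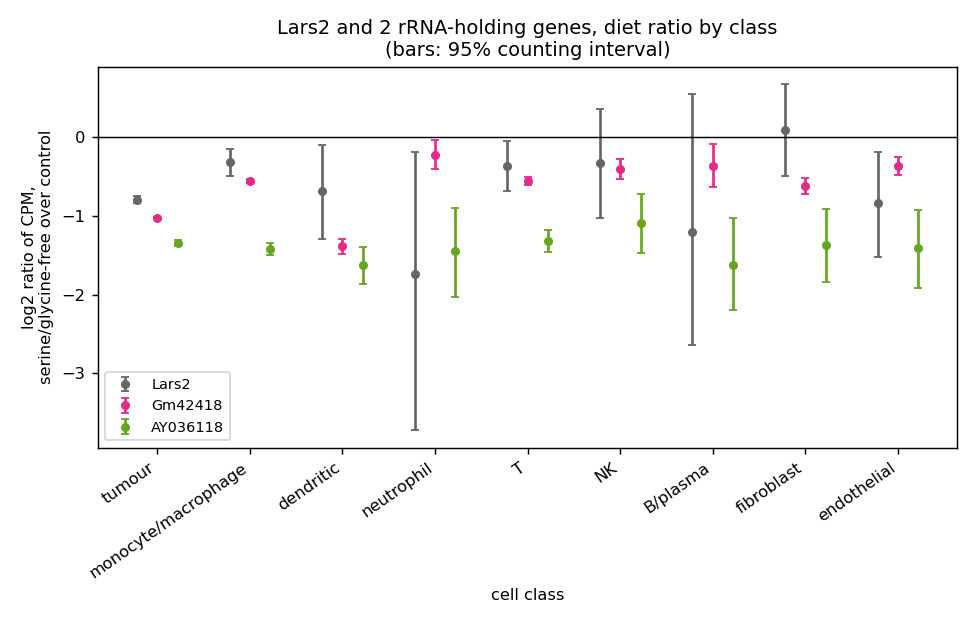
Log2 ratio of CPM (serine/glycine-free over control library) of Lars2, Gm42418 and AY036118 in the 9 cell classes, with 95% counting intervals. Gm42418 and AY036118 lie below 0 in 9 of 9 classes and Lars2 in 8, with wide intervals in the small classes. In neutrophils and in B and plasma cells Lars2 did not reach the UMI minimum for testing.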

How the data were processed

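The authors deposited, per sample, a matrix of raw UMI counts per gene and cell barcode, with 32285 genes. The file headers name Cell Ranger 7.0.1 and the submitters' processing notes name Cell Ranger 2.2.2 with mm10; the sources used here do not state how reads in introns were counted. Raw totals were 173785388 UMIs over 14774 barcodes (control) and 173592046 over 20662 (serine/glycine-free).

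Cells with at least 500 UMIs and 300 genes and at most 20% mitochondrially encoded UMIs were kept. Scrublet (scanpy 1.11.5) marked 571 and 1206 doublets (4.03% and 5.94%, against 11.3% and 16.2% expected from cell numbers), which were removed. Classes were gated on marker UMIs per 10000: tumour at 4 or more of Hmga2 and Rhox5 with leukocyte genes under 12, leukocytes the reverse, then T 15, NK 10, B/plasma 20, monocyte/macrophage 60, dendritic 15, neutrophil 40, fibroblast 60 and endothelial 20. Cells past both the tumour and the leukocyte limit (178 and 497), without a lineage (164 and 203), unassigned (180 and 507) or mast (5 and 4) were left out. These limits, and the trimming of some panels, were set after the panels' distributions were seen. Of cells, 5.82% and 9.10% lay near the tumour limit and 5.10% and 8.21% near the leukocyte limit.

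Summed UMIs gave CPM and log2 ratios with exact conditional binomial intervals. Medians over a gene list have order-statistic intervals over the members, given for lists of at least 6 genes. A gene was tested with 50 UMIs over both libraries, or over both groups of cells, and called at 25% higher or 20.0% lower. Comparisons of a class with tumour cells took genes with a UMI in both. On simulated counts for the tumour comparison of diets (15026 genes) 95.37% of intervals held the true ratio, and 192 of 193 tested changed genes had the right direction. The simulated counts carried only the counting error that the intervals assume. They check the calculation and cannot show how far cells, mice or libraries differ. Leiden clustering (2000 variable genes, 30 components, 15 neighbours, resolution 1) gave 22 clusters; a cluster took the class of most of its cells, and 1 cluster of mostly tumour-gated cells with 4 T or leukocyte markers among its leading genes stayed unnamed, a rule set after the clusters were seen. Python 3.11.15, numpy 2.4.6, scipy 1.17.1, pandas 2.3.3, anndata 0.12.19, scikit-learn 1.9.0, igraph 0.11.9 and matplotlib 3.10.9 were used.

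Every member was counted, and all but 1 were named; 1 member and 1 context gene are not reported here by name. Values in both libraries were required for Sars, Sars2, Gars, Aars, Aars2, Wars, Wars2 and Lars2, and for the 3 highest and 3 lowest members of each class among those with 50 UMIs. The members and lists were chosen with earlier results of these data known. Coordinates are GRCm38 (GENCODE M21), and promoters are from RefSeq (GRCm38.p6, Mars matched as Mars1).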

Additional observations from a re-analysis of the deposited data

How the results depend on the processing

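With 1 library per diet no value could be recomputed without a replicate. No paired analysis was possible because each diet is 1 library and the results come from no test. The alternatives for the diet comparison were other scaling, doublets kept, a 10% limit on mitochondrially encoded UMIs, equal weight per cell, a common depth range, cluster-based classes and other count minimums; gates 1.5 times stricter, equal weight of tumour clusters and the other ATF4 rankings were chosen after seeing the data. Of the group results recomputed this way 3 fell outside the interval of the reported value. The other 82 were not marked as moved, among them counts of higher genes, which have no interval. The cytosolic median in tumour cells was -0.031 with equal cluster weights (interval -0.07 to 0.07, range over 11 alternatives -0.18 to -0.03). In cells of a common depth range it was -0.07, and its interval (-0.13 to 0.02) spans 0 as well. The cytosolic median in monocytes and macrophages was -0.049 with cluster-based classes (interval -0.15 to 0.06; range over 10 alternatives -0.16 to -0.05). The ATF4-responsive median of quintile 5 over quintile 1 in the serine/glycine-free library was 1.0 when cells were ranked within clusters (1.0 to 1.29; control 1.15 to 1.49). The mitochondrial median in tumour cells ranged from -0.03 to 0.09. Single genes in tumour cells, over the alternatives without equal cluster weights, ranged from 0.06 to 0.18 for Aars, -0.15 to -0.07 for Aars2, -0.31 to -0.23 for Sars, 0.22 to 0.38 for Sars2, -0.21 to -0.08 for Gars, -0.26 to -0.16 for Wars and -0.86 to -0.71 for Lars2. At equal cluster weights Aars stood at 0.27, Sars at -0.21 and Gars at -0.05, outside those ranges. Depth limits the small classes and the rarest members, Aars2 and Pars2.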
